A study of Mus musculus with 7 samples.

Results

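The genes *H2-Ea-ps*, *Trim12a*, *Nnt*, *Wdfy1*, *Glo1* and *Ifi202b* are 6 of the 49492 genes of the count table, and each is listed as differing in allele or expression between inbred mouse strains. They were picked by gene name after their levels in the same 7 libraries had been seen, so the difference between the models in these 6 genes is given as a description and carries no test. All 6 passed the filter on low counts, which kept 16091 genes. The question asked of them was whether their pattern across the libraries follows what would be seen if the mice of the 2 glioblastoma (GBM) models differed in strain background.

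The NPCTKO model had 4 libraries and the NSCHRas-shp53 model 3, all made from GBM of C57BL/6 mice aged 3 months per the labels, with a replicate number for each library and no statement of how animals were assigned. In NPCTKO, neural progenitors of embryos were electroporated in utero with piggyBac plasmids that carry Cas9, guides against tumor suppressor genes, and EGFP or DsRed. In NSCHRas-shp53, a lentivirus carrying an oncogenic human HRAS and a short hairpin RNA against *Trp53* was injected into the ventricular wall of adult *Tek-Cre*;*Ai14* or *Tbx18* CreERT2/+;*Ai14* mice. RNA came from EGFP+ or DsRed+ cells sorted by FACS in NPCTKO and from unsorted tumor tissue, host cells included, in NSCHRas-shp53. The methods of the study keep the *Tek-Cre*, *Tbx18* CreERT2/+ and *Ai14* lines on C57BL/6, and a further line, *Tbx18* H2B-GFP/+, on a mixture of C57BL/6 and CD-1, an outbred stock. Which line and which fluorescent reporter each sequenced NPCTKO tumor had was not analysed here, as no label gives it. Model, sorting and any difference in mouse line therefore change together and cannot be told apart.

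Inbred strains differ at many loci by deletions, duplications and changes in regulatory sequence, and a few such loci switch a gene on or off. *H2-Ea* encodes the alpha chain of the class II antigen I-E, which pairs with the product of *H2-Eb1*. The H2b haplotype of C57BL/6 has lost the start of *H2-Ea*, and it is carried in the reference genome as the pseudogene *H2-Ea-ps*, whereas other haplotypes transcribe it in antigen-presenting cells. *Ifi202b* belongs to the interferon-inducible Ifi200 family of DNA-binding proteins and is known to be barely expressed in C57BL/6 and well expressed in several other strains. *Trim12a* lies in the *Trim5* cluster, a rapidly evolving group of genes related to antiviral restriction factors. *Wdfy1* encodes a FYVE and WD40 protein of endosomes that takes part in Toll-like receptor signalling through the adaptor TRIF. *Glo1*, glyoxalase 1, detoxifies methylglyoxal and lies in a segment that is duplicated in some strains and single in C57BL/6J. *Nnt*, nicotinamide nucleotide transhydrogenase, makes mitochondrial NADPH, and several of its exons are deleted in the C57BL/6J substrain but not in C57BL/6N.

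Some stretches of reference sequence are printed as a description of these genes in the reference genome. The *H2-Ea-ps* stretch is the first coding exon annotated by GENCODE M21 for this pseudogene (GRCm38, chr17:34344398-34344644, minus strand, 247 bases), 1 of 3 coding exons, with 0 start codons annotated. The other 3 are RefSeq windows of GRCm38.p6 from 250 bases before to 50 bases after an annotated start, all on the minus strand: *Trim12a* at chr7:104315446-104315745, its neighbour *Trim5* at chr7:104288057-104288356, and *Ifi202b* at chr1:173982795-173983094. Capitals mark the letters GAAANNGAAA, the core of the interferon-stimulated response element, searched on both strands and read here as its reverse complement.
H2-Ea-ps: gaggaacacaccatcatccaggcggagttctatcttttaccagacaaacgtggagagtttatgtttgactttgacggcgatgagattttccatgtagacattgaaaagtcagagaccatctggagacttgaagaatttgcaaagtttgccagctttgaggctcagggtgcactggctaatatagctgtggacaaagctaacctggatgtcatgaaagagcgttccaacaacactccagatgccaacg
Trim12a: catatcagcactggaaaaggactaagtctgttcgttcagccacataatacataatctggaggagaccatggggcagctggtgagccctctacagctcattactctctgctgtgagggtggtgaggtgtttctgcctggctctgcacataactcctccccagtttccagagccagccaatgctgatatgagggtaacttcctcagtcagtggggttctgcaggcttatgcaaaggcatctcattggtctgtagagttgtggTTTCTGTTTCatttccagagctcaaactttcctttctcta
Trim5: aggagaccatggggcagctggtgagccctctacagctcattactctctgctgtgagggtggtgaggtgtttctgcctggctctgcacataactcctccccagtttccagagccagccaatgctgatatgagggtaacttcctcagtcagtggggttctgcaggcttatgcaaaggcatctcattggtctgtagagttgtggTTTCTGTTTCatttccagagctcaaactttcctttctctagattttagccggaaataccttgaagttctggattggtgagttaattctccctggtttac
Ifi202b: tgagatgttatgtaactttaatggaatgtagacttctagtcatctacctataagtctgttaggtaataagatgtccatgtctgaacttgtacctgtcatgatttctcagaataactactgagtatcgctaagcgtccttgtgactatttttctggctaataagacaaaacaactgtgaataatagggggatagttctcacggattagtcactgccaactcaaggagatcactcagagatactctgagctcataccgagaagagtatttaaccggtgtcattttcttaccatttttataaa
The *Trim12a* and *Trim5* windows share a run of 241 identical bases, which is bases 60 to 300 of the first and bases 1 to 241 of the second. That run holds the capitals in both. The letters occur in 1131 of 32851 RefSeq windows of this length (3.44%), in 6 of the 11 *Trim12a* relatives listed and in 9 of the 11 listed Ifi200 genes that have a window, and they are not in the *Ifi202b* window. A match is a description of the letters and does not show a site in use.

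The total counts were 15002873 to 19247326 per NPCTKO library and 17529054 to 19840860 per NSCHRas-shp53 library. Levels are given as CPM, the counts scaled by library size with TMM factors, and a count of 0 allows up to 3 counts, or 0.13 to 0.234 CPM depending on the library; intervals and floors cover counting error only. Across all genes, edgeR's quasi-likelihood test called 2101 of 16091 (13.1%) at a Benjamini-Hochberg adjusted p under 0.05, with 7.77% higher and 5.28% lower in NSCHRas-shp53, and the median log2 fold change was -0.10. Scaling by total count alone moved that median by 0.18 (log2), to 0.09. Without NSCHRas-shp53 library 1, 2 or 3, edgeR called 938 of 16738, 602 of 16637 and 539 of 16521 genes. Without NPCTKO libraries 1 and 2 together it called 2719 of 16631, and without libraries 3 and 4 together 8951 of 16601. Counts of calls in any list shift with these totals. The p-values measure the spread between these libraries, which may in part be technical. NPCTKO libraries 1 and 2 stood apart from libraries 3 and 4 in immune transcripts: the summed level of 16 macrophage markers was 22096 and 28549 CPM against 617 and 4283 CPM, and 3464 to 9516 CPM in NSCHRas-shp53, where 1 of 15 tested markers, *Mrc1*, was called higher (0 were called in 6 of the 7 fits that left out 1 library, all but that without NSCHRas-shp53 library 2). The count row of the microglial marker *P2ry12* was 0 in all 7 libraries, while the FPKM table listed it at 18.5, 27.5, 2.48 and 6.90 in NPCTKO and at 32.8, 10.02 and 11.5 in NSCHRas-shp53, so its counts do not show it to be absent. The labelled tissue was checked with 9 glioma and oligodendrocyte lineage markers, all of them detected, which summed to 4182 to 6306 CPM in NPCTKO and 4909 to 8608 CPM in NSCHRas-shp53. These sums overlapped, but the single markers differed. Of the 9, 5 were called (55.6%, against 13.1% of all genes), 4 lower and 1 higher in NSCHRas-shp53, with a median log2 fold change of -1.74. Without NSCHRas-shp53 libraries 1, 2 and 3 in turn, 2, 1 and 1 were called. In bulk RNA, fewer cells of a type and less RNA per cell cannot be told apart.

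**Figure D1:**
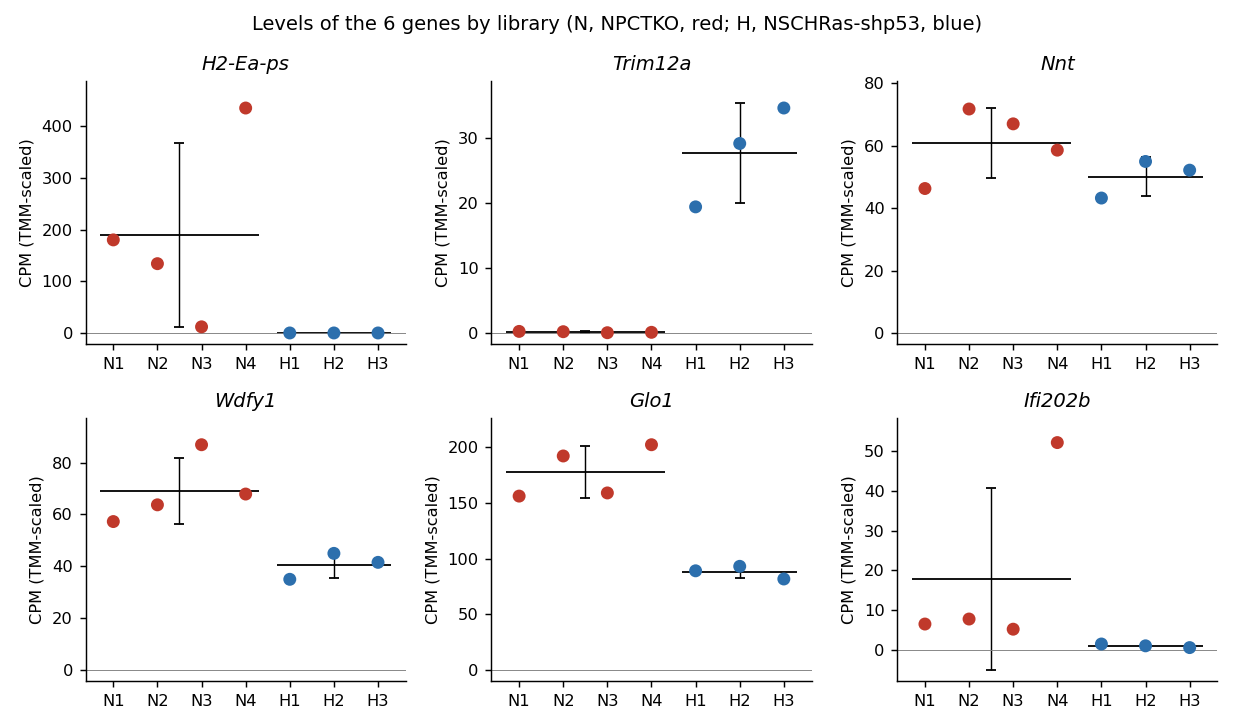
Level of each of the 6 genes in each library, in CPM on a linear axis that differs between panels. Points are libraries (N1 to N4, NPCTKO, red; H1 to H3, NSCHRas-shp53, blue), lines are group means and bars are SD. The groups overlap only for Nnt; H2-Ea-ps is at 0 in all 3 NSCHRas-shp53 libraries and Trim12a is at most 0.202 CPM in the 4 NPCTKO libraries.

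*H2-Ea-ps* was read in every NPCTKO library and in no NSCHRas-shp53 library. Its counts (chr17:34342933-34344643, minus strand, GRCm38) were 2678, 1720, 228 and 7203 in NPCTKO libraries 1 to 4 and 0 in each of the 3 NSCHRas-shp53 libraries. These correspond to 180, 134, 11.9 and 435 CPM, with a mean of 190.4 ± 178 CPM (SD, n = 4). Against the floor of 3 counts over the whole NSCHRas-shp53 group (0.0491 CPM), the NPCTKO mean was at least 3880-fold higher, and the lowest NPCTKO library at least 242-fold higher. The groups did not overlap, while the NPCTKO libraries themselves spanned 36.7-fold. The FPKM table gave the same picture, with 276, 197, 15.9 and 613 FPKM in NPCTKO and 0 in NSCHRas-shp53. None of the 987 distinct 50-base words in its 2 GENCODE transcripts occurs in a transcript of another gene. A transcribed *H2-Ea-ps* differs from what is known of the H2b haplotype of C57BL/6, the strain on the labels of all 7 libraries, and the genotype of the mice was not read here.

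The other class II genes show that antigen presentation transcripts were present in both models. *H2-Ab1*, the beta chain of the I-A antigen, was at 1885, 2993, 122 and 679 CPM in NPCTKO and at 480, 149 and 125 CPM in NSCHRas-shp53. *H2-Eb1*, the partner chain of *H2-Ea*, was at 162, 4395, 223 and 413 CPM in NPCTKO and at 347, 113 and 91.6 CPM in NSCHRas-shp53. Both overlapped between the groups and neither was called (adjusted p = 0.14 and 0.18 by edgeR). The level per length of *H2-Ea-ps* relative to *H2-Ab1*, the ratio of their FPKM values, was 17.9%, 8.22%, 13.2% and 94.5% in NPCTKO libraries 1 to 4 and 0% in NSCHRas-shp53. Library 4 was the highest and the other 3 lay close together. Relative to *H2-Eb1*, the FPKM ratio was 369%, 7.85%, 13.3% and 244%. *H2-Eb1* itself stood at 4.85% of *H2-Ab1* in NPCTKO library 1 and at 38.6% to 105% in libraries 2 to 4 (FPKM), against 42.6% to 45.0% in the 3 NSCHRas-shp53 libraries. So the balance of the class II chains was nearly constant among NSCHRas-shp53 tumors and varied among NPCTKO tumors.

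Of 11 class II genes tested, 4 were called lower in NSCHRas-shp53 and 0 higher (36.4%, against 13.1% of all genes), with a median log2 fold change of -3.06. They were *H2-DMb2* (-4.66 ± 1.02, adjusted p = 0.0226), *Ciita*, the transactivator of class II genes (-3.12 ± 0.61, adjusted p = 0.0158), *H2-Eb2* (-4.18 ± 1.04, adjusted p = 0.0349) and *H2-DMa* (-3.69 ± 0.97, adjusted p = 0.0415), where the error is the SE. The summed level of 12 class II genes was 26515 and 44609 CPM in NPCTKO libraries 1 and 2, 1678 and 7362 CPM in libraries 3 and 4, and 1795 to 4509 CPM in NSCHRas-shp53, so the list moved with the macrophage markers. The part of these markers in the result was not tested. *H2-Oa*, with counts of 0 in every library, added nothing to the sum. Its FPKM was 97.6, 226, 1.51 and 7.47 in NPCTKO and 4.99, 3.07 and 1.43 in NSCHRas-shp53. Without NPCTKO libraries 1 and 2 together, 3 of the 11 were called, beside 2719 of 16631 genes in all. Without libraries 3 and 4, all 11 were called, beside 8951 of 16601 genes in all. Leaving out NPCTKO library 3 gave 8 calls, NPCTKO library 1 or 2 alone gave 2, and any single NSCHRas-shp53 library gave 0, where the adjusted p of the 4 genes was 0.0522 to 0.169. The calls lost without NPCTKO library 1 or 2 were *H2-DMa* (adjusted p = 0.0763 and 0.0698) and *H2-Eb2* (0.0669 and 0.0639). B cell markers, which also go with class II genes, summed to 107 and 79.0 CPM in NPCTKO libraries 1 and 2 and to at most 5.19 CPM elsewhere. The count row of the B cell marker *Ms4a1* was 0 in all 7 libraries, while its FPKM was 1.93, 3.51, 0.0324 and 0.195 in NPCTKO libraries 1 to 4 and 0.0623, 0 and 0 in NSCHRas-shp53. Dendritic cell markers summed to 818 and 767 CPM there, 38.1 and 197 CPM in NPCTKO libraries 3 and 4, and 63.4 to 176 CPM in NSCHRas-shp53. *H2-Ea-ps* was highest in NPCTKO library 4, where none of these sums was highest. Among the NPCTKO libraries it was lowest in library 3, as was each of these sums. The part of these cells in its level was not tested.

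The neighbours of *H2-Ea-ps* differed in both directions. Within 500 kb lie 55 other tested genes, of which 17 were called (30.9%), 14 lower and 3 higher in NSCHRas-shp53, with a median log2 fold change of -1.36. The class II genes *H2-DMb2*, *H2-Eb2* and *H2-DMa*, called above, are among these 17, so the shares are not separate. The nearest tested neighbours were *H2-Eb2*, 2.7 kb away, and *Btnl2*, a butyrophilin-like gene 10.2 kb away. *Btnl2* was at 6.93, 6.63, 2.40 and 1.75 CPM in NPCTKO and 0.219, 0.254 and 0.0433 CPM in NSCHRas-shp53 (log2 fold change -4.65, adjusted p = 0.0135). The immunoproteasome and peptide transporter genes *Psmb9*, *Psmb8*, *Tap1* and *Tap2*, of which only *Psmb9* falls under the rule for named genes and the others were picked after their values were seen, differed by -3.45, -3.05, -3.22 and -2.61 on the log2 scale (adjusted p = 0.0133, 0.0279, 0.0199 and 0.0263). The calls with the smallest p in this window were *Tnxb*, tenascin XB (log2 fold change 3.50, adjusted p = 0.00267), *Prrt1* (3.29, adjusted p = 0.00277) and *Kifc1*, a mitotic kinesin (-2.08, adjusted p = 0.00692), and these 3 kept an adjusted p of at most 0.0408 without any 1 library. Without any 1 NSCHRas-shp53 library, *Btnl2* had an adjusted p of 0.0528 to 0.0646, and *Psmb9* one of 0.0518 to 0.0774. *Psmb8*, *Tap1* and *Tap2* also lost the call without each of them, with adjusted p of up to 0.131, 0.0988 and 0.122. *Psmb8* further lost it without NPCTKO library 1 or 2 (adjusted p = 0.0528 and 0.0506) and *Tap2* without NPCTKO library 1 (adjusted p = 0.0506).

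**Figure D2:**
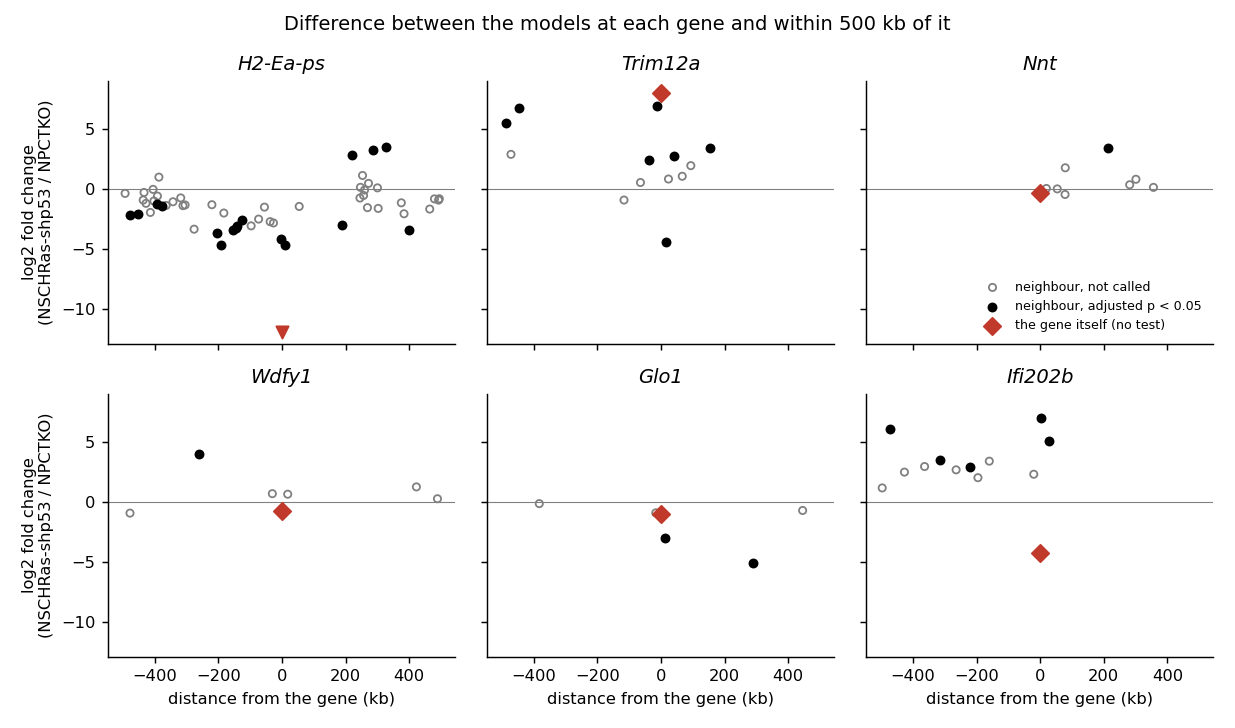
Log2 fold change of every tested gene within 500 kb of each of the 6 genes, against its distance in kb, NSCHRas-shp53 over NPCTKO. Filled circles passed an adjusted p of 0.05 in edgeR, open circles did not, the red diamond is the gene itself and the red triangle for H2-Ea-ps is a bound set by 3 counts; Gm18445 and Hbb-y, at 0 counts in NPCTKO, are drawn at fitted values that are no bound. All tested neighbours of Ifi202b lie above 0 while Ifi202b lies below it, and 2 of the 5 tested neighbours of Glo1 passed below 0.

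*Ifi202b* was low in both models and higher in NPCTKO, by a margin that rests largely on 1 library. Its counts (chr1:173962568-173982744, minus strand) were 96, 99, 99 and 864 in NPCTKO libraries 1 to 4 and 26, 19 and 12 in NSCHRas-shp53. The levels were 6.46, 7.72, 5.16 and 52.2 CPM against 1.42, 0.964 and 0.519 CPM, which do not overlap. The mean was 17.9 ± 22.9 CPM (SD, n = 4) in NPCTKO and 0.968 ± 0.451 CPM (SD, n = 3) in NSCHRas-shp53, and the ratio of pooled counts per library size was 19.6 (95% counting interval 15.0 to 26.02). The fitted log2 fold change was -4.21 (SE 1.04), and -2.73 without NPCTKO library 4. The summed macrophage markers were at 22096, 28549, 617 and 4283 CPM in NPCTKO libraries 1 to 4, and their part in the level of *Ifi202b* was not tested. No 50-base word of its 1 annotated transcript, of 1648, occurs in another gene's transcript.

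The called relatives of *Ifi202b* were higher in NSCHRas-shp53. Of 10 Ifi200 genes tested, 4 were called, all of them higher (40.0%, against 13.1% of all genes called and 7.77% called higher), 6 were not, and the median log2 fold change was 2.84. *Ifi206* was at 0.121 to 0.260 CPM in NPCTKO and at 5.96, 10.5 and 24.7 CPM in NSCHRas-shp53 (log2 fold change 6.14, adjusted p = 0.00322); its ratio of pooled counts was 76.7 (95% counting interval 43.7 to 149), from 12 counts in NPCTKO. *Ifi205* was at 0.538, 0.156, 0.156 and 1.33 CPM against 13.6, 26.5 and 17.3 CPM (log2 fold change 5.11, adjusted p = 0.00774). Both calls held without any 1 library, with adjusted p of at most 0.0174 for *Ifi206* and 0.0364 for *Ifi205*. *Ifi209* (log2 fold change 3.50, adjusted p = 0.014) and *Ifi207* (2.97, adjusted p = 0.0179) were also called. *Ifi209* lost the call without NSCHRas-shp53 library 2 or 3 (adjusted p = 0.0519 and 0.0688), and *Ifi207* without any 1 NSCHRas-shp53 library (adjusted p = 0.0537 to 0.0775). The count of 4 became 3, 2 and 2 without NSCHRas-shp53 libraries 1, 2 and 3, and 6 without NPCTKO library 4.

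Set beside *Ifi204*, a DNA-sensing member of the same family, the contrast is plain. *Ifi204* was at 6.66, 23.6, 4.74 and 47.1 CPM in NPCTKO and at 64.7, 93.6 and 97.0 CPM in NSCHRas-shp53 (log2 fold change 2.05, adjusted p = 0.1). The CPM of *Ifi202b* as a share of that of *Ifi204* was 97.0%, 32.8%, 109% and 111% in NPCTKO libraries 1 to 4 and 2.198%, 1.03% and 0.535% in NSCHRas-shp53; these shares compare counts over gene spans and are not per length. *Mndal*, the nearest tested gene on one side at 20.1 kb, was not called (2.34 on the log2 scale, adjusted p = 0.164). On the other side, 4.18 kb away, *Gm18445* had 0 counts in all NPCTKO libraries and 0.765, 0.964 and 1.08 CPM in NSCHRas-shp53, at least 19.8-fold higher against a floor of 3 counts over the NPCTKO group (adjusted p = 0.0129, and 0.0642 and 0.0706 without NSCHRas-shp53 library 2 or 3). Within 500 kb of *Ifi202b*, 5 of 12 tested genes were called, all higher in NSCHRas-shp53 (41.7%, against 13.1% of all genes). All of them but *Gm18445* are the Ifi200 genes called above, so this share is not separate from that of the family. Reads of near-identical Ifi200 copies can be split between genes, and the size of that split is uncertain here.

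*Trim12a* had the reverse pattern to *H2-Ea-ps*, being read in NSCHRas-shp53 and almost absent from NPCTKO. Its counts (chr7:104299894-104315466, minus strand) were 3, 2, 0 and 1 in NPCTKO libraries 1 to 4 and 355, 575 and 801 in NSCHRas-shp53. The levels were 0.202, 0.156, 0 and 0.0604 CPM against 19.4, 29.2 and 34.6 CPM, with means of 0.105 ± 0.0913 CPM (SD, n = 4) and 27.7 ± 7.72 CPM (SD, n = 3). The pooled counts, 6 against 1731, gave a ratio of 299 (95% counting interval 137 to 817), and the groups did not overlap. Every NPCTKO library was at or below the floor of 3 counts. The fitted log2 fold change was 8.05 (SE 0.76). The span of *Trim12a* overlaps that of *Gm15133*.

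Copies of a gene in one cluster can exchange reads, so the cluster was read gene by gene. Of the 5915 distinct 50-base words in the 6 annotated *Trim12a* transcripts, 10.4% occur in transcripts of other genes, 5.04% in *Trim5* and 3.96% in *Trim12c*. *Trim12c*, the copy of the same name, was at 10.1, 13.8, 6.88 and 28.4 CPM in NPCTKO and at 12.5, 30.5 and 37.0 CPM in NSCHRas-shp53, with overlapping groups (log2 fold change 0.85, adjusted p = 0.34). *Trim12a* therefore stood at 2.00%, 1.13%, 0% and 0.213% of the CPM of *Trim12c* in NPCTKO and at 155%, 95.5% and 93.7% in NSCHRas-shp53. The absence of *Trim12a* was thus not shared by *Trim12c*. *Trim5*, 11.8 kb from *Trim12a* and with the window printed above, was at 0.0673, 0, 0 and 0.121 CPM in NPCTKO and at 3.44, 7.20 and 9.56 CPM in NSCHRas-shp53 (adjusted p = 0.00454, at most 0.0264 without any 1 library). Its pooled counts of 3 against 426 gave a ratio of 147 (95% counting interval 50.1 to 717). *Trim34b*, 14.0 kb to the other side, had the opposite direction, with 6.39, 8.27, 3.33 and 12.6 CPM in NPCTKO and 0.109, 0.761 and 0.173 CPM in NSCHRas-shp53 (log2 fold change -4.43, adjusted p = 0.0148). Without NSCHRas-shp53 library 1 or 3 its adjusted p was 0.0538 and 0.081.

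Of 12 *Trim12a* relatives tested, 4 were called higher and 1 lower in NSCHRas-shp53 (41.7%, against 13.1% of all genes), with a median log2 fold change of 0.97. Beside *Trim5* and *Trim34b* these were *Trim30d* (log2 fold change 3.44, adjusted p = 0.0214), *Trim30b* (2.78, adjusted p = 0.026) and *Trim34a* (2.45, adjusted p = 0.0465). *Trim30d* lost the call without NSCHRas-shp53 library 2 or 3 (adjusted p = 0.0743 and 0.0922), and *Trim30b* and *Trim34a* lost it without any of the 3, with adjusted p up to 0.125 and 0.184. *Trim30b* also lost it without NPCTKO library 1 or 4 (adjusted p = 0.0511 and 0.0545), and *Trim34a* without NPCTKO library 1, 2 or 4 (adjusted p = 0.0952, 0.0664 and 0.0575). The count of 5 became 2, 2 and 1 without NSCHRas-shp53 libraries 1, 2 and 3, and 3 without NPCTKO library 1 or 4. Within 500 kb of *Trim12a*, 7 of 13 tested genes were called (53.8%, against 13.1% of all genes), 6 of them higher. The 5 called relatives are all among these 7, so this share is not separate from that of the relatives. The remaining called neighbours are globin genes. *Hbb-y*, an embryonic beta-like globin, had 0 counts in NPCTKO and was at 0.82, 0.964 and 0.519 CPM in NSCHRas-shp53, at least 16.2-fold higher against the same group floor (adjusted p = 0.0163, and 0.0598 to 0.0764 without any 1 NSCHRas-shp53 library). *Hbb-bt*, named after its values were seen, was at 18.9, 13.2 and 1.21 CPM in NSCHRas-shp53 and at most 0.74 CPM in NPCTKO (adjusted p = 0.0352). Its adjusted p was 0.0584 to 0.111 without any 1 NSCHRas-shp53 library, and 0.071 and 0.0583 without NPCTKO library 2 or 4.

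**Figure D3:**
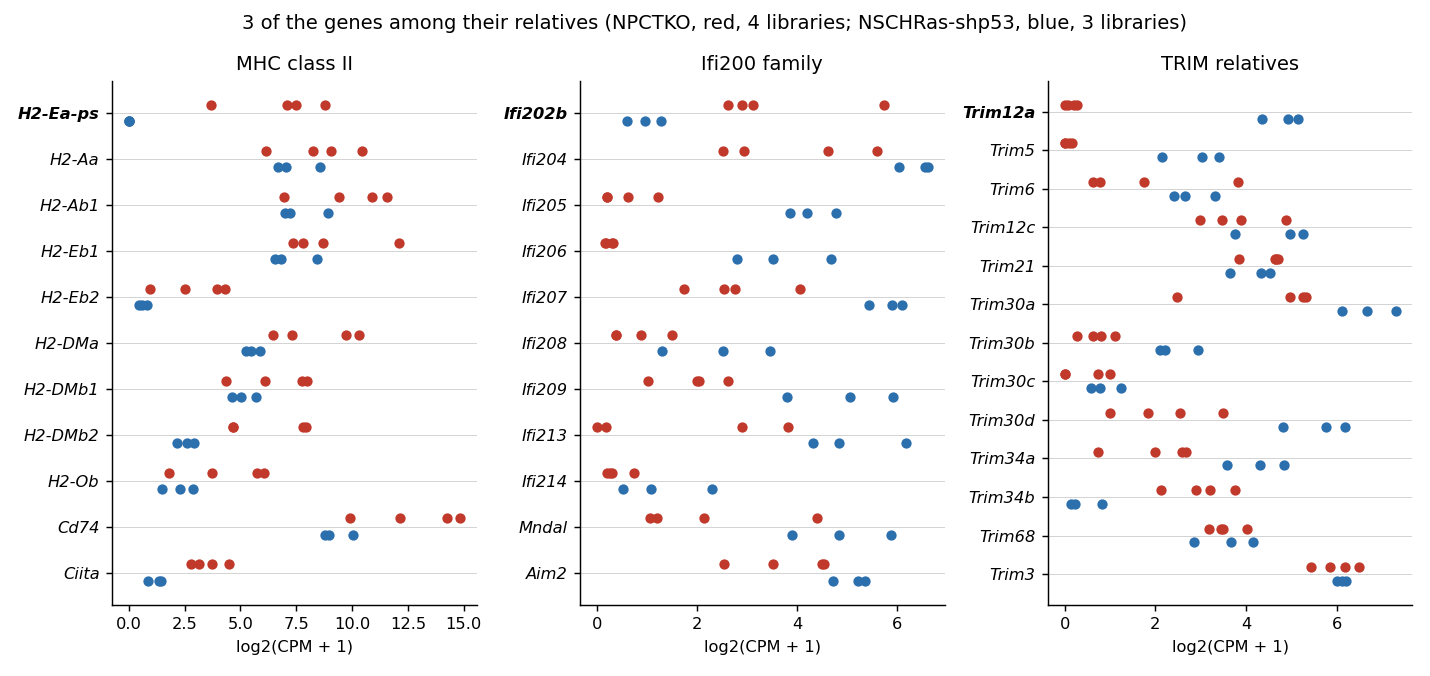
Level of H2-Ea-ps, Ifi202b and Trim12a (bold) and of their tested relatives in each library, as log2(CPM + 1). Red points are the 4 NPCTKO libraries and blue points the 3 NSCHRas-shp53 libraries. H2-Ea-ps is at 0 in NSCHRas-shp53 although H2-Ab1 and H2-Eb1 are not, Ifi202b is the Ifi200 gene with NPCTKO above NSCHRas-shp53, and Trim12a and Trim5 are near 0 in NPCTKO while Trim12c is not.

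The summed interferon response overlapped between the models. The 24 interferon-stimulated genes tested summed to 1102 to 4630 CPM in NPCTKO and 1239 to 2147 CPM in NSCHRas-shp53. Their median log2 fold change was -0.32, beside -0.10 over all genes.

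*Wdfy1* was moderately expressed in both models and higher in every NPCTKO library than in any NSCHRas-shp53 library. Its counts (chr1:79702262-79776143, minus strand) were 851, 817, 1669 and 1123 in NPCTKO and 639, 886 and 959 in NSCHRas-shp53. The levels were 57.2, 63.7, 86.9 and 67.9 CPM against 34.9, 45.0 and 41.5 CPM, a mean of 68.9 ± 12.8 CPM (SD, n = 4) against 40.5 ± 5.09 CPM (SD, n = 3). The ratio of means was 1.70, the fitted log2 fold change was -0.77 (SE 0.27), and scaling by total count alone gave -0.60. On the FPKM scale the values were 11.9, 13.8, 16.1 and 13.1 against 4.88, 7.75 and 6.55, a ratio of means of 2.15. The genes *Gm10555* and *Mrpl44* overlap its span, and 0.265% of its 50-base words occur in other genes' transcripts.

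Few genes around *Wdfy1* were called. Within 500 kb, 1 of 7 tested genes was called (14.3%, against 13.1% of all genes), and it was higher in NSCHRas-shp53: *Scg2*, secretogranin II of neuroendocrine vesicles (log2 fold change 4.07, adjusted p = 0.0143, and 0.0661 without NSCHRas-shp53 library 3). The 5 neuronal markers tested were also all called higher in NSCHRas-shp53, where they summed to 214 to 529 CPM against 18.1 to 39.4 CPM in NPCTKO (3, 2 and 2 called without NSCHRas-shp53 libraries 1, 2 and 3); their part in the *Scg2* value was not tested. *Mrpl44*, a mitochondrial ribosomal protein gene whose span overlaps that of *Wdfy1*, was not called (log2 fold change -0.56, adjusted p = 0.352). The nearest tested genes beyond the span, *Ap1s3* (0.72, adjusted p = 0.351) and *Serpine2* (0.67, adjusted p = 0.245), were not called either. Of 12 genes of TRIF and Toll-like receptor signalling and of FYVE proteins, 0 were called by edgeR and 2 by DESeq2 (24.6% of all genes), and 3 had an unadjusted p under 0.05 (30.3% of all genes). Their median log2 fold change was -0.0005, and edgeR called 2 without NPCTKO library 4.

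*Glo1* was the most abundant of the 6 in NSCHRas-shp53, and its mean level in NPCTKO was 2.02 times as high. Its counts (chr17:30592866-30612659, minus strand) were 2322, 2466, 3053 and 3349 in NPCTKO and 1628, 1833 and 1887 in NSCHRas-shp53. The levels were 156, 192, 159 and 202 CPM, mean 178 ± 23.3 CPM (SD, n = 4), against 89.0, 93.0 and 81.6 CPM, mean 87.9 ± 5.77 CPM (SD, n = 3). The lowest NPCTKO library lay above the highest NSCHRas-shp53 library, and within a model the libraries spanned at most 1.30-fold, the narrowest NPCTKO range of the 6 genes. The fitted log2 fold change was -1.01 (SE 0.26), and scaling by total count alone gave -0.82. The FPKM values, 105, 128, 98.5 and 126 against 51.1, 53.3 and 50.4, had a ratio of means of 2.21. Of its 50-base words, 5.66% occur in transcripts of other genes, most of them in *Gm13443*.

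The genes on either side of *Glo1* also had log2 fold changes below 0, and 1 of them was called. *Btbd9*, a BTB domain gene 16.6 kb away, was at 84.7, 85.4, 114 and 92.4 CPM in NPCTKO and at 51.1, 37.1 and 64.7 CPM in NSCHRas-shp53; the groups did not overlap, but it was not called (log2 fold change -0.89, adjusted p = 0.0803). *Dnah8*, an axonemal dynein heavy chain 11.7 kb to the other side, was at 5.38, 3.59, 14.8 and 11.97 CPM against 0.82, 1.57 and 0.995 CPM (log2 fold change -2.98, adjusted p = 0.0224). *Glp1r*, the receptor of glucagon-like peptide 1, 289 kb away, was at 8.07, 11.1, 15.0 and 16.6 CPM against 0.328, 0 and 0.735 CPM (log2 fold change -5.11, adjusted p = 0.015). These were the 2 calls among 5 tested neighbours (40.0%, against 13.1% of all genes), whose median log2 fold change was -0.89. Without any 1 NSCHRas-shp53 library *Dnah8* lost its call (adjusted p = 0.0725 to 0.111), and *Glp1r* lost it without NSCHRas-shp53 library 1 (adjusted p = 0.0666). Neither gene was called by limma on log2(FPKM + 1) or log2(FPKM + 0.1), where *Glp1r* had an adjusted p of up to 0.988. The ratio of *Glo1* to *Btbd9* was 139% to 225% in NPCTKO and 126% to 251% in NSCHRas-shp53 (CPM), so the groups overlapped once *Glo1* was set against its neighbour.

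No gene of the *Glo1* pathway list was called by edgeR with all libraries. Of 11 genes of glyoxal and aldehyde metabolism tested, 0 were called by edgeR and 2 by DESeq2 (24.6% of all genes). By edgeR, 3 had an unadjusted p under 0.05 (30.3% of all genes). Their median log2 fold change was 0.08, and without NPCTKO library 3 or 4, edgeR called 1. *Hagh*, glyoxalase 2, which takes the product of *Glo1*, was at 44.5, 51.2, 20.1 and 28.0 CPM in NPCTKO and at 33.4, 29.2 and 27.0 CPM in NSCHRas-shp53 (log2 fold change -0.27, adjusted p = 0.668). The groups overlapped for *Park7*, described as a deglycase (log2 fold change -0.99, adjusted p = 0.146), and did not overlap for *Aldh9a1*, an aldehyde dehydrogenase (-0.95, adjusted p = 0.0748). These 3 were named after their values were seen. Set against *Hagh* per length, *Glo1* stood at 315%, 319%, 620% and 583% in NPCTKO libraries 1 to 4 and at 188%, 204% and 256% in NSCHRas-shp53 (FPKM).

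*Nnt* did not separate the models. Its counts (chr13:119335448-119408997, minus strand) were 688, 920, 1286 and 969 in NPCTKO and 791, 1083 and 1206 in NSCHRas-shp53. The levels were 46.3, 71.7, 67.0 and 58.6 CPM, mean 60.9 ± 11.2 CPM (SD, n = 4), against 43.2, 54.9 and 52.2 CPM, mean 50.1 ± 6.12 CPM (SD, n = 3). NPCTKO library 1 lay below 2 of the NSCHRas-shp53 libraries, so the groups overlapped. The fitted log2 fold change was -0.28 (SE 0.26), and -0.08 with scaling by total count alone. The deletion carried by C57BL/6J removes internal exons, and a count over the whole gene does not show which exons were read. Of its 50-base words, 0.156% occur in other genes' transcripts.

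Around *Nnt*, 1 of 8 tested genes within 500 kb was called (12.5%), the chemokine *Ccl28*, at 0.135 to 0.573 CPM in NPCTKO and at 2.95, 2.89 and 4.50 CPM in NSCHRas-shp53 (log2 fold change 3.47, adjusted p = 0.0106, and 0.0587 without NSCHRas-shp53 library 3). The nearest tested gene, *Paip1*, was not called (0.06, adjusted p = 0.913). Of 15 genes of mitochondrial NADPH and antioxidant metabolism, 0 were called by edgeR and 1 by DESeq2 (24.6% of all genes). By edgeR, 2 had an unadjusted p under 0.05 (30.3% of all genes), and the median log2 fold change was -0.16. The share called around *Nnt* was close to the 13.1% of all genes.

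Over all 6 loci, 5 genes had groups that do not overlap, a property of 31.3% of all tested genes that was in view when the 6 were chosen. In NSCHRas-shp53, *H2-Ea-ps*, *Wdfy1*, *Glo1* and *Ifi202b* were lower and *Trim12a* was higher. Among their 100 tested neighbours within 500 kb, 33 were called (33.0%, against 13.1% of all genes), 16 higher and 17 lower, and 48 did not overlap. Neighbours on 1 stretch of chromosome are often related genes, and 55 of the 100 surround *H2-Ea-ps* alone. Part of the 33 were also counted among the called relatives, so these shares are not separate. Over all lists of relatives and pathway genes, 14 of 95 tested genes were called, beside 13.1% of all genes. The count of 33 became 12, 10 and 7 without NSCHRas-shp53 libraries 1, 2 and 3, and 78 without NPCTKO libraries 3 and 4 together. Over all genes these fits called 938 of 16738, 602 of 16637, 539 of 16521 and 8951 of 16601. By length, the order of mean FPKM in NPCTKO was *H2-Ea-ps* (275), *Glo1* (114), *Nnt* (15.6), *Wdfy1* (13.7), *Ifi202b* (11.4) and *Trim12a* (0.0163). The ranges of *Nnt*, *Wdfy1* and *Ifi202b* overlapped there, *Glo1* lay above all of them, and *H2-Ea-ps* had a range wide enough to overlap each of these. In NSCHRas-shp53 the order was *Glo1* (51.6), *Nnt* (11.8), *Trim12a* (7.19), *Wdfy1* (6.39), *Ifi202b* (0.391) and *H2-Ea-ps* (0), and only *Trim12a* and *Wdfy1* overlapped.

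A further list of 38 genes described to vary between strains gives a view that did not enter the choice of the 6, although it was written with earlier results of these data known. It is not separate from the loci above, since it holds *Dnah8* and *Btbd9*, the nearest tested neighbours of *Glo1*. Of the 26 that could be tested, 5 were called (19.2%, against 13.1% of all genes), 1 higher and 4 lower in NSCHRas-shp53, and their median log2 fold change was -0.24. *Nlrp1b*, an inflammasome sensor whose alleles set the response of mouse strains to anthrax lethal toxin, was at 2.62, 3.90, 0.208 and 0.786 CPM in NPCTKO and at 29.1, 26.1 and 31.3 CPM in NSCHRas-shp53 (log2 fold change 3.95, adjusted p = 0.0192). Its neighbour in the same cluster, *Nlrp1a*, was at 11.4, 16.7, 0.573 and 5.32 CPM against 1.75, 1.88 and 2.72 CPM, with overlapping groups (adjusted p = 0.186), and was named after its values were seen. *Alad*, a heme synthesis enzyme whose copy number differs between strains, was at 82.3, 106, 37.7 and 34.3 CPM in NPCTKO and at 16.8, 22.1 and 14.5 CPM in NSCHRas-shp53 (log2 fold change -1.87, adjusted p = 0.0371). *Erdr1* (-2.56, adjusted p = 0.0424), *Dnah8* and *Cyfip2* (-1.30, adjusted p = 0.0327) completed the calls. *H60b*, named after its values were seen, had counts of 0 in every library and was not tested by edgeR. Its FPKM was 0.102 to 0.551 in NPCTKO and 4.27, 7.52 and 10.2 in NSCHRas-shp53.

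None of the 5 calls held in every fit that left out 1 library. Without NSCHRas-shp53 libraries 1, 2 and 3 in turn, 0 of the 26 were called by edgeR, and without NPCTKO library 1 or 2 the count was 2, and 7 without NPCTKO library 3. *Nlrp1b* had an adjusted p of 0.0539 to 0.0754 without any 1 NSCHRas-shp53 library, and *Alad*, *Erdr1* and *Cyfip2* one of up to 0.16, 0.162 and 0.136. Without NPCTKO library 1 or 2, *Alad* (0.078 and 0.0747), *Erdr1* (0.0727 and 0.0519) and *Cyfip2* (0.07 and 0.0666) were past 0.05 in adjusted p, as was *Erdr1* without NPCTKO library 4 (0.0626). DESeq2 called 8 of the 26, beside 24.6% of all genes. Scaling by total count alone left 2 calls. With all libraries, 8 of the 26 had an unadjusted p under 0.05 by edgeR, beside 30.3% of all genes.

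**Figure D4:**
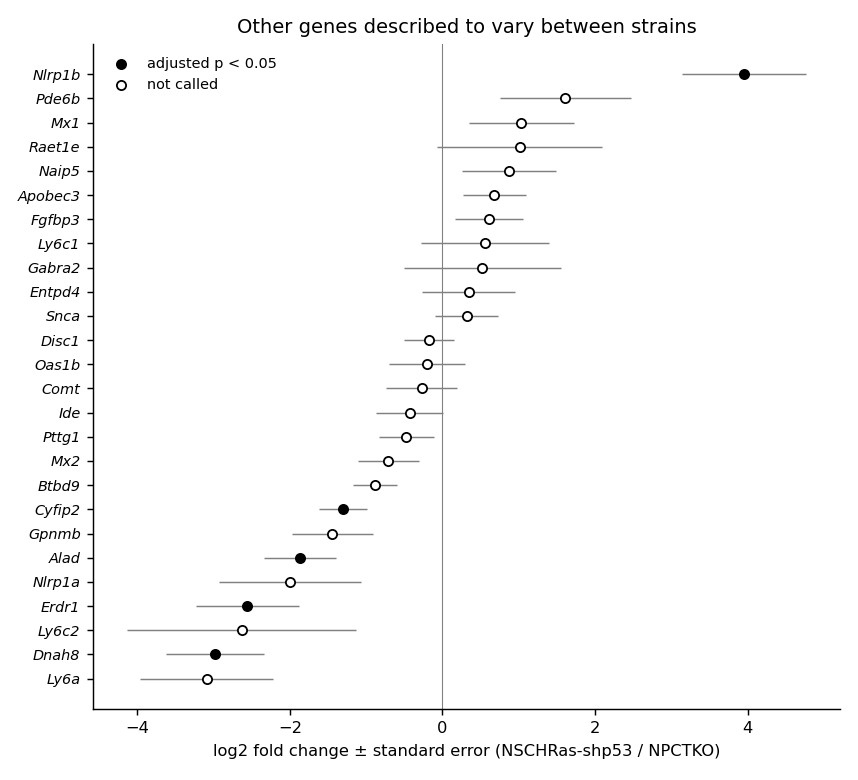
Log2 fold change with SE, NSCHRas-shp53 over NPCTKO, of the 26 tested genes of the further list of strain-variable genes, in order of size. Filled points passed an adjusted p of 0.05 in edgeR. The filled points are Nlrp1b at 3.95 and Cyfip2, Alad, Erdr1 and Dnah8 between -1.30 and -2.98.

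Genes with a profile like that of each of the 6 were found by Pearson's r of log2(CPM + 1) over the 7 libraries, among 16090 other genes. Since both models enter, a gene that differs between them for any reason scores high, and no p is given. For *Trim12a*, 434 genes had r above 0.95, led by *Gm18445* (0.999), *Phkg1*, a phosphorylase kinase subunit (0.997), and *Mmp10*, a matrix metalloproteinase (0.997). For *H2-Ea-ps* there were 93, led by *Gm37843* (0.991), *Cmtr2*, an mRNA cap methyltransferase (0.989), and *Tbx4* (0.985), and no class II gene was among the top 3. *Glo1* had 112, led by *Ngdn* (0.994), *Syt9* (0.992) and *Ky* (0.991), and *Wdfy1* had 61, led by *Lrr1* (0.995), *Ikzf4* (0.991) and *Tmpo* (0.991). *Ifi202b* had 13, led by *Cyb5r2* (0.974), *Tarsl2* (0.974) and *Hirip3* (0.971), and *Nnt* had 2, *Phf7* (0.985) and *Gm26826* (0.952). The gene most alike to *Trim12a*, *Gm18445*, lies beside *Ifi202b* on another chromosome.

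Whether the 6 genes follow the strain differences stated at the start was not tested. *H2-Ea-ps* was at 0 and *Ifi202b* near 1 CPM in NSCHRas-shp53, and both were higher in NPCTKO. *Glo1* and *Wdfy1* were lower in NSCHRas-shp53 than in NPCTKO, and no level of *Wdfy1* by strain is given here. *Dnah8*, beside *Glo1*, was also lower in NSCHRas-shp53, and its call was lost without any 1 NSCHRas-shp53 library. *Trim12a* was higher in NSCHRas-shp53, as was *Trim5*, and no level of *Trim12a* by strain is given here to set it against. *Nnt* had overlapping groups, and a count over the whole gene does not show its exon deletion. Strain, model and sorting cannot be told apart with these libraries, and no genotype was read.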

How the data were processed

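Bulk RNA-seq libraries of 4 NPCTKO and 3 NSCHRas-shp53 tumors were grouped by the labels. The deposited gene table holds raw counts. Per the submitters' processing notes, the authors trimmed reads (Cutadapt) and aligned them with TopHat2 2.1.1 to mm10 (GRCm38), a C57BL/6J-based genome; no source used here names the tool that counted them. Cufflinks 2.2.1 gave the deposited FPKM values. Counts per gene span are unstranded, since the kit on the labels is non-directional, so overlapping genes and near-identical copies are uncertain.

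The members and all gene lists were chosen with earlier results of these data known. Genes were compared with edgeR 4.0.16 (quasi-likelihood test, TMM, filterByExpr, adjusted over 16091 genes) in R 4.3.3, in the direction NSCHRas-shp53 minus NPCTKO, and the fit was tested on simulated data. The members have no test. Named genes were the members, the calls of each list or 500 kb neighbourhood (at most the 4 with the smallest p), the nearest tested genes, and the 3 most similar profiles. Alternatives were DESeq2 1.42.0, limma 3.58.1 on log2(FPKM + 1) and log2(FPKM + 0.1), other scalings and filters, and fits without libraries. Same-numbered libraries of the models did not deviate together (r = 0.279, -0.193 and 0.193), so the replicate number was not used as a block. Transcript words of 50 bases came from GENCODE M21; 3 of the 6 members had a RefSeq window. Python 3.11.15 with pandas 2.3.3 and scipy 1.17.1 was used for the rest. A few of the genes so named are not reported here.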

Additional observations from a re-analysis of the deposited data

Results flagged for a closer look

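Among 55 values examined in the 4 NPCTKO libraries, 2 had 1 library whose gap to the others exceeded Dixon's critical share of the group's range for 4 samples, a gap that chance gives in about 1 of 20 groups. *Ifi202b* was at 52.2 CPM in NPCTKO library 4 and at 5.16 to 7.72 CPM in the other 3 (gap 0.946 of the range). *Kifc1*, a neighbour of *H2-Ea-ps*, was at 64.2 CPM in NPCTKO library 1 and at 46.8 to 49.0 CPM in the other 3 (gap 0.872 of the range).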

How the results depend on the processing

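The log2 difference of no member changed sign under the alternatives run. The number of genes called, 2101 as reported, was 1041 with the replicate block, 3946 by DESeq2, 8951 without NPCTKO libraries 3 and 4, and 539 to 2595 with 1 library left out. The number of neighbours called, 33 of 100, was 51 of 100 by DESeq2. It was 19 of 85 with log2(FPKM + 1), 21 of 85 with log2(FPKM + 0.1) and 15 of 57 with an FPKM filter. Without NPCTKO libraries 3 and 4 it was 78 of 103. Within 250 kb 20 of 46 were called, and within 1 Mb 49 of 176. With 1 library left out it was 7 to 42. The number of relatives and pathway genes called was 14 of 95, beside 13.1% of all genes. By DESeq2 it was 31 of 95, beside 24.6% of all genes. It was 8 of 82 with log2(FPKM + 1), 9 of 78 with the filter and 57 of 95 without NPCTKO libraries 3 and 4. With 1 left out it was 3 to 23. The number of further strain genes called, 5 of 26, was 2 without scaling factors, 1 with the replicate block and 8 by DESeq2, each of 26. It was 8 of 27 without NPCTKO libraries 1 and 2, 12 of 28 without libraries 3 and 4, and 0 to 7 with 1 left out. The split of calls moved: the neighbours had 16 higher and 17 lower as reported, 13 and 9 with the block, and 11 and 1 without NSCHRas-shp53 library 1, and the relatives and pathway genes had 8 and 6 as reported, 9 and 14 without NPCTKO library 3, and 19 and 38 without libraries 3 and 4. The causes were not tested, beyond the smaller number of libraries or genes in those fits.

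The log2 difference of *Trim12a* (8.05) was 8.34 without factors, 2.98 on log2(FPKM + 1) with and without the filter, 5.96 on log2(FPKM + 0.1), 9.67 and 7.20 without NPCTKO libraries 1 and 2 or 3 and 4, and 7.59 to 8.64 with 1 left out, since its NPCTKO counts lie at the floor. *Wdfy1* was -1.01, -1.11 and -1.01 on the 3 FPKM scales and -0.85 to -0.64 with 1 left out. *Glo1* was -0.82 without factors and -1.06 to -0.94 with 1 left out. *Ifi202b* was -2.81 with the replicate block, -2.62 on log2(FPKM + 1) with and without the filter, -2.88 without NPCTKO libraries 3 and 4, and -4.55 to -2.73 with 1 left out. *Nnt* stayed within -0.36 to -0.15 and the bound for *H2-Ea-ps* within -12.32 to -11.11 with 1 left out. The pairing of libraries by number is not in the labels, and the block turned no member's direction. With 4 and 3 libraries, few calls survive the loss of 1 NSCHRas-shp53 library, and counts at or under 3 set no level.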
